A study of Mus musculus with 6 samples.

Results

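The genes described here encode the machinery by which the last part of the kidney tubule takes up sodium under the control of aldosterone. They were the rows of the deposited count table with the symbols Scnn1a, Scnn1b, Scnn1g, Nr3c2, Hsd11b2, Sgk1, Nedd4l, Fxyd4 and Atp1b1. All 9 symbols were found once each among the 25031 genes counted, and all 9 were among the 15416 genes with enough counts to be tested. Messenger RNA was sequenced in 6 kidney libraries from male mice of the inbred strain C57BL/6, wild type and aged 7 to 8 weeks. The CePPy group had 3 libraries from mice given 5 mg/kg of (+)CePPy, positively charged polypyrrole nanoparticles doped with cerium, by vein right after the injury. The vehicle group had 3 libraries from mice given the same volume of saline. Mice of both groups had undergone ischemia of both kidneys for 23 minutes at a body temperature of 37 °C, followed by reperfusion, a standard model of acute kidney injury. The sources used here do not give the time from injury to collection, and no uninjured kidney was analysed here. Nothing in the labels ties each library to its own animal, so p-values reflect the spread among libraries, part of which may be technical.

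In the connecting tubule and collecting duct, sodium enters principal cells through the epithelial sodium channel, built from alpha, beta and gamma subunits, and leaves toward the blood through the sodium pump. Aldosterone binds the mineralocorticoid receptor, which raises channel activity in part by inducing the kinase SGK1. SGK1 phosphorylates the ubiquitin ligase NEDD4L and thereby weakens its removal of the channel from the cell surface, while the enzyme 11-beta-hydroxysteroid dehydrogenase type 2 inactivates glucocorticoids so that aldosterone can reach the receptor. In whole kidney, fewer cells of a type and less RNA per cell cannot be told apart.

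NEDD4L docks on a short motif near the end of each channel subunit, called the PY motif, and SGK1 carries the same kind of motif. The coding sequences are shown because they are the physical link between the channel, kinase and ligase genes of this set. They were read from the longest coding transcript of each gene in GENCODE M21 (GRCm38), 5′ to 3′ on the coding strand, with the 4 codons of the motif in capitals (2 proline codons, 1 codon of any kind and 1 tyrosine codon).
Scnn1a: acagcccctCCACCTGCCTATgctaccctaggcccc
Scnn1b: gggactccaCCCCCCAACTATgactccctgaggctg
Scnn1g: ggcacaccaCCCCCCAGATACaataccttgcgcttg
Sgk1: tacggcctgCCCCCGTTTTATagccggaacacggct
The motif began at codon 671 of 700 in Scnn1a, codon 615 of 638 in Scnn1b and codon 630 of 655 in Scnn1g, so it lay within the last 30 codons of each subunit. In Sgk1 it began at codon 388 of 524. A motif of this kind was present in the longest coding transcript of 1306 of 21764 genes (6%).

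Sgk1 is a textbook target of aldosterone and glucocorticoids, whose receptors bind facing pairs of the element AGAACA, and 1 of its annotated start regions is shown for that reason. RefSeq promoter windows of GRCm38.p6, from 250 bases before to 50 bases after a start, were found for 6 of the 9 genes. The window shown is chr10:21993640-21993939 on the plus strand, 5′ to 3′, with each AGAACA element on either strand in capitals.
Sgk1: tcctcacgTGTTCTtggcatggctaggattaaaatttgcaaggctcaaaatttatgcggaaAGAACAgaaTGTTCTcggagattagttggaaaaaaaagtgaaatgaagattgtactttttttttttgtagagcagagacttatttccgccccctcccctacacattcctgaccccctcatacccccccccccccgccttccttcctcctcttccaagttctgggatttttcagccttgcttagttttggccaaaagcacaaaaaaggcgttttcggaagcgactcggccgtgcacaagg
This window held 3 such elements. A facing pair of them formed the full site, AGAACA and TGTTCT with 3 bases between them. That pattern was present in 3 of 32851 promoter windows (0.00913%). Only exact matches were counted, so receptor sites that depart from the pattern at any fixed base were missed. No other Sgk1 window held an exact match, nor did any of the 5 windows used for other genes. The single element, counted on both strands and including those inside a full site, was present in 3 of the 6 Sgk1 windows, in 0 of the 5 windows of Atp1b1, Fxyd4, Scnn1g, Scnn1b and Nr3c2, and in 6233 of all 32851 windows (19%). The sequence GATAAG, a site of GATA factors, was present on either strand in 2 of the 6 Sgk1 windows, in 0 of the other 5 and in 7.44% of all windows. The counts do not show which Sgk1 start was used.

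Fxyd4 encodes a small membrane protein, also known as CHIF, that binds the sodium pump in the collecting duct, and Fxyd2 encodes its relative, the pump's gamma subunit. The codons of the motif that names the family are in capitals and are shown to identify both pump regulators compared further on.
Fxyd4: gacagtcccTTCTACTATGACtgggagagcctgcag
Fxyd2: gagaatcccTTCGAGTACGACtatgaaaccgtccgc
The same 4-codon pattern, phenylalanine, any codon, tyrosine and aspartate, was found in 647 of 21764 genes (2.97%).

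Of the 9 genes, 7 had higher and 2 lower fitted values in CePPy kidneys. Atp1b1, Scnn1a, Hsd11b2 and Scnn1g were higher in every CePPy library than in every vehicle library, with log2 fold changes between 0.31 and 0.51, whereas Sgk1 and Nedd4l had lower means and overlapping groups. None of the 9 passed the quasi-likelihood test of edgeR at a Benjamini-Hochberg adjusted p under 0.05, a threshold that 0.00649% of all genes tested passed. An unadjusted p under 0.05 held for 4 of the 9, all with higher values, against 9.65% of all genes tested in that direction. Values without overlap and with CePPy above occurred for the same 4 genes, against 12.3% of all genes tested. The median log2 fold change was 0.25 over the 9 genes and 0.00 over all genes tested. The call depended on the tool and on 1 library. DESeq2 called Atp1b1 and Scnn1a higher (2 of 9 genes, against 3.4% of all genes it tested) and none of the 9 lower (3.2% of all genes). EdgeR without CePPy 2 called the same pair, where it called 5.17% of all genes. Limma-voom called 0 of the 9 with sample weights, where it called 2.28% of all genes, and 0 without them.

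**Figure D1:**
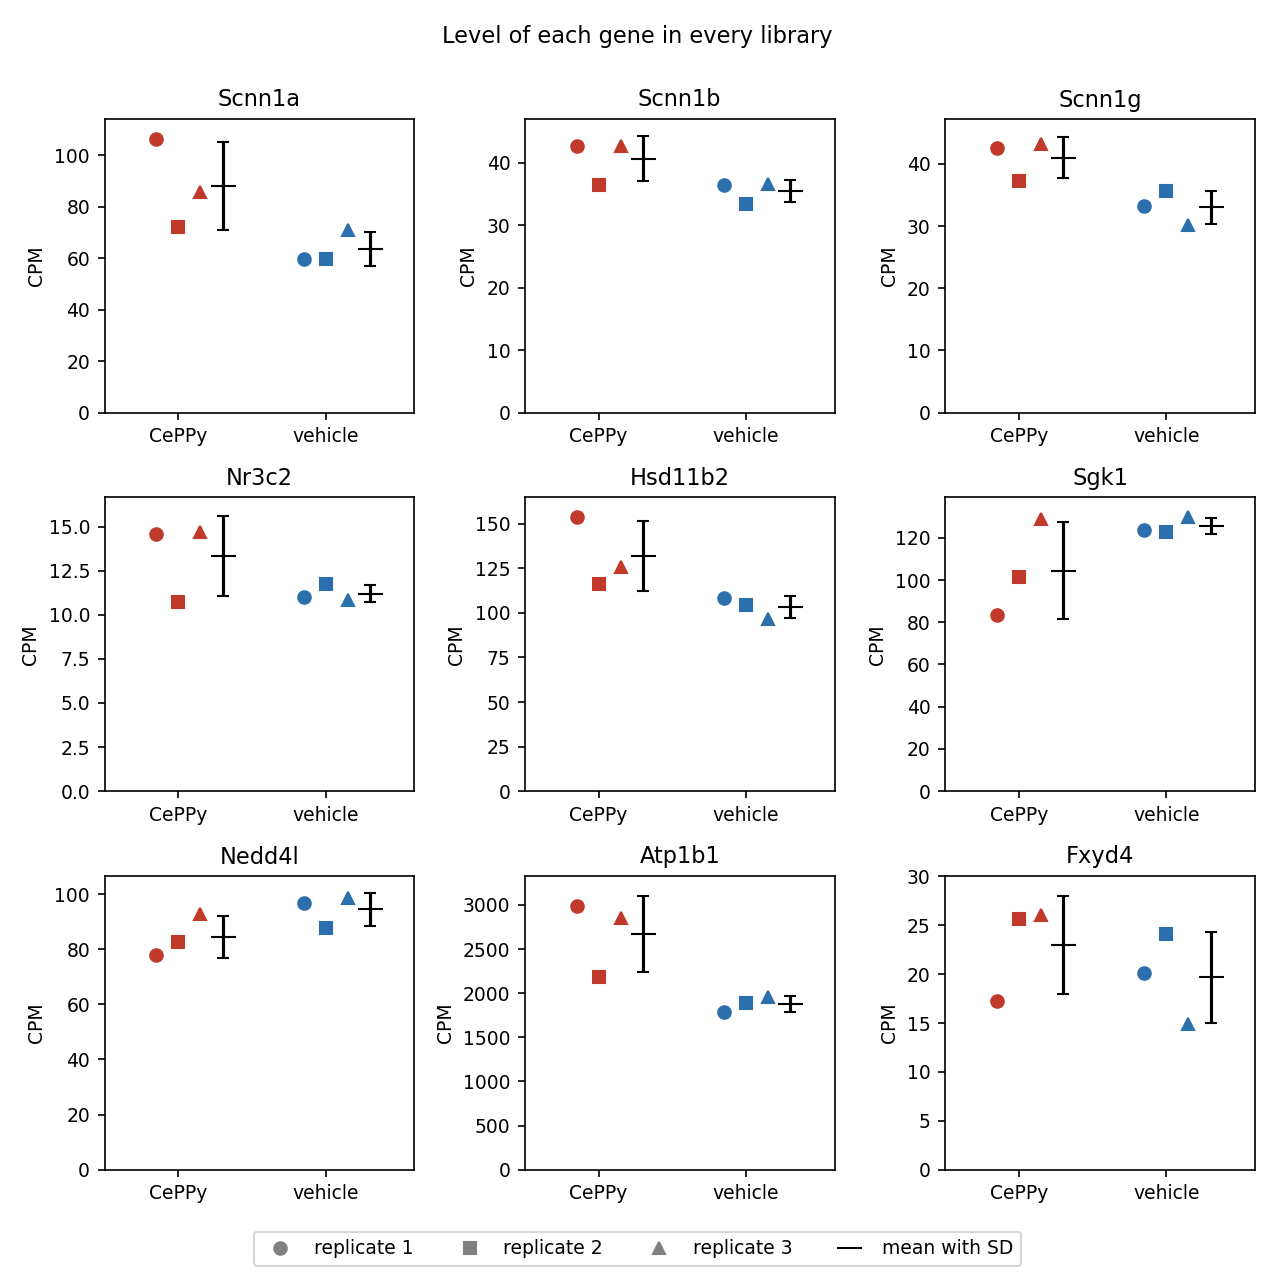
Level of each of the 9 genes in CPM (counts scaled to library size, y axis from 0) in the 3 CePPy libraries (left) and the 3 vehicle libraries (right), with symbols for the replicate numbers and bars for the mean and SD. Groups do not overlap for Scnn1a, Scnn1g, Hsd11b2 and Atp1b1, and CePPy 2 is the lowest CePPy library for each of these 4.

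**Figure D2:**
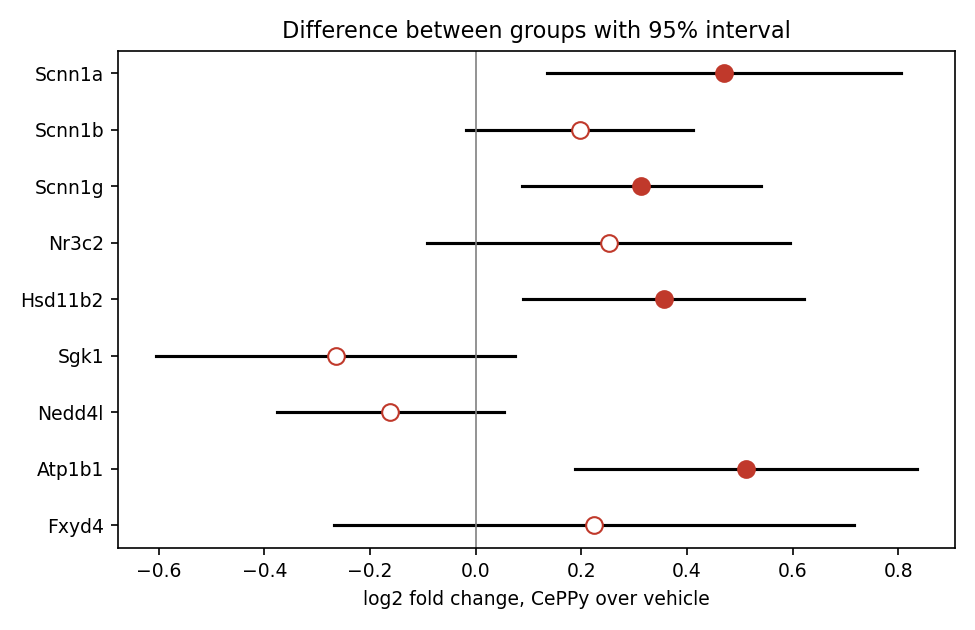
Log2 fold change of CePPy over vehicle for each gene (points) with its 95% interval from the edgeR fit (lines); filled points mark genes whose groups do not overlap. The intervals of Scnn1a, Scnn1g, Hsd11b2 and Atp1b1 lie above 0, before any adjustment for the number of genes tested.

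The alpha subunit gene Scnn1a (ENSMUSG00000030340; GRCm38 chromosome 6, 125320659 to 125344943, plus strand) encodes the subunit without which little channel reaches the membrane. It measured 106, 72.2 and 85.5 CPM (counts scaled to TMM-adjusted library sizes) in CePPy 1, 2 and 3, against 59.7, 59.8 and 71.0 CPM in vehicle 1, 2 and 3. The groups did not overlap, but CePPy 2 lay only just above vehicle 3. The mean was 87.9 ± 17.1 CPM in CePPy and 63.5 ± 6.48 CPM in vehicle (SD, n = 3 each), so the log2 fold change was 0.47 (edgeR adjusted p = 0.16, SE 0.15), or 1.39-fold. DESeq2 gave an adjusted p of 0.05 when rounded (0.04996), at the edge of its threshold. Without CePPy 2 the log2 fold change was 0.59 (edgeR adjusted p = 0.0459), and without CePPy 1 it was 0.32. Over all 16 alternative settings the adjusted p of Scnn1a lay between 0.0459 and 0.388.

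The beta and gamma subunit genes are neighbours on chromosome 7 and are both needed for full channel current. Scnn1g (ENSMUSG00000000216; 121734479 to 121768475, plus strand) measured 42.5, 37.3 and 43.2 CPM in CePPy 1, 2 and 3, against 33.2, 35.6 and 30.2 CPM in vehicle 1, 2 and 3. Every CePPy library was above every vehicle library, by a narrow margin between CePPy 2 and vehicle 2. The log2 fold change was 0.31 (SE 0.10, 95% interval 0.09 to 0.54, edgeR adjusted p = 0.164), from means of 41.0 ± 3.25 CPM in CePPy and 33.0 ± 2.69 CPM in vehicle (SD, n = 3 each). Scnn1b (ENSMUSG00000030873; 121865038 to 121918514, plus strand) measured 42.7, 36.5 and 42.7 CPM in CePPy 1, 2 and 3, against 36.4, 33.5 and 36.6 CPM in vehicle 1, 2 and 3. The groups overlapped, since CePPy 2 lay at the level of vehicle 3. Its log2 fold change was 0.20 (SE 0.09, 95% interval -0.02 to 0.41, edgeR adjusted p = 0.296). The Scnn1b gene lies across from Cog7 on the opposite strand, and no exonic base is shared between them.

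The mineralocorticoid receptor gene and its gatekeeper enzyme differed in how clearly the groups separated. Hsd11b2 (ENSMUSG00000031891; chromosome 8, 105518755 to 105523988, plus strand) measured 154, 116 and 126 CPM in CePPy 1, 2 and 3, against 108, 105 and 96.4 CPM in vehicle 1, 2 and 3. All CePPy values were higher, with CePPy 1 far above the rest. The means were 132 ± 19.6 CPM in CePPy and 103 ± 6.15 CPM in vehicle (SD, n = 3 each), giving a log2 fold change of 0.36 (95% interval 0.09 to 0.62, SE 0.12, edgeR adjusted p = 0.17). Without CePPy 1 it was 0.23. Nr3c2 (ENSMUSG00000031618; chromosome 8, 76899442 to 77245012, plus strand), which encodes the receptor, measured 14.6, 10.7 and 14.7 CPM in CePPy 1, 2 and 3, against 11.0, 11.7 and 10.8 CPM in vehicle 1, 2 and 3. CePPy 1 and 3 lay above all vehicle libraries while CePPy 2 lay below all of them, so the groups overlapped. The log2 fold change of Nr3c2 was 0.25 (SE 0.15, 95% interval -0.09 to 0.60, edgeR adjusted p = 0.389), and it was 0.39 without CePPy 2. In the annotation, Nr3c2 shares 247 exonic bases with an RNA gene on the opposite strand, whose reads would be mixed with its own if strand was not used in counting.

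Sgk1 and Nedd4l, the kinase and the ligase it restrains, were the members with lower fitted values. Sgk1 (ENSMUSG00000019970; chromosome 10, 21882184 to 21999903, plus strand) measured 83.3, 101 and 129 CPM in CePPy 1, 2 and 3, against 124, 123 and 130.0 CPM in vehicle 1, 2 and 3. Vehicle libraries lay close together, while CePPy libraries spread from well below them (CePPy 1) to within their range (CePPy 3). The means were 104 ± 22.9 CPM in CePPy and 126 ± 3.95 CPM in vehicle (SD, n = 3 each). The log2 fold change was -0.26 (SE 0.15, 95% interval -0.60 to 0.07, edgeR adjusted p = 0.363), and it ranged from -0.44 without CePPy 3 to -0.12 without CePPy 1. Nedd4l (ENSMUSG00000024589; chromosome 18, 64887705 to 65217828, plus strand) measured 77.8, 82.7 and 92.9 CPM in CePPy 1, 2 and 3, against 96.9, 87.8 and 98.7 CPM in vehicle 1, 2 and 3. CePPy 3 lay above vehicle 2, so the groups overlapped, and CePPy 1 was again the lowest library. Its log2 fold change was -0.16 (SE 0.09, 95% interval -0.38 to 0.05, edgeR adjusted p = 0.378), and it was -0.10 without CePPy 1. Nedd4l shares 277 exonic bases with an antisense gene, with the same limit as for Nr3c2.

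Atp1b1 (ENSMUSG00000026576; chromosome 1, 164437109 to 164458355, minus strand) encodes the beta subunit that brings the sodium pump to the membrane of every tubule segment. It measured 2986, 2182 and 2850.0 CPM in CePPy 1, 2 and 3, against 1782, 1884 and 1958 CPM in vehicle 1, 2 and 3. The lowest CePPy library was above the highest vehicle library. The means were 2673 ± 430.1 CPM in CePPy and 1875 ± 88.3 CPM in vehicle (SD, n = 3 each). The log2 fold change of 0.51 (SE 0.14, 95% interval 0.19 to 0.84, edgeR adjusted p = 0.137), or 1.43-fold, was the largest of the 9 genes, and the adjusted p was 0.00468 with DESeq2. Without CePPy 2 it was 0.64 (edgeR adjusted p = 0.0241), and over the 16 alternatives the adjusted p of Atp1b1 lay between 0.00468 and 0.368. Atp1b1 shares 575 exonic bases with Nme7 on the opposite strand, whose own level averaged 22.4 CPM in CePPy and 21.8 CPM in vehicle.

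The pump regulator Fxyd4 (ENSMUSG00000004988; chromosome 6, 117933559 to 117937692, minus strand) had the least certain difference of the 9 genes, with the largest SE. It measured 17.2, 25.6 and 26.1 CPM in CePPy 1, 2 and 3, against 20.1, 24.1 and 14.9 CPM in vehicle 1, 2 and 3. The groups overlapped, with vehicle 3 and CePPy 1 lowest. Its log2 fold change was 0.22 (SE 0.21, 95% interval -0.27 to 0.72, edgeR adjusted p = 0.595). It was 0.06 without vehicle 3, 0.13 without CePPy 3 and 0.14 without CePPy 2, but 0.40 without CePPy 1 and 0.40 without vehicle 2. Urothelial marker genes, summed over 7 genes from Krt5 to Upk3a, were also lowest in these 2 libraries, at 9.31, 22.7 and 43.1 CPM in CePPy 1, 2 and 3, against 28.7, 21.0 and 5.70 CPM in vehicle 1, 2 and 3. The mean of 7 principal cell markers, described further on, was also lowest in vehicle 3, at -0.31 log2 units relative to the vehicle mean. Among CePPy libraries it was lowest in CePPy 1, at 0.41, though above every vehicle library. The part of either marker list in the Fxyd4 values was not tested.

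Levels of different genes were compared as CPM per kilobase of the summed exons of each gene. The summed exons cover all annotated isoforms, so a gene that mainly uses shorter isoforms gets too low a value. The order of genes at near levels depends on this length. Atp1b1 stood far above the rest at 868 ± 139.6 in CePPy and 608 ± 28.7 in vehicle (CPM per kilobase, SD, n = 3 each), followed by Hsd11b2 at 71.8 ± 10.7 in CePPy and 56.1 ± 3.34 in vehicle. Nr3c2 was the lowest, at 2.06 ± 0.351 in CePPy and 1.73 ± 0.0741 in vehicle. Between them lay Sgk1, the channel subunits, Fxyd4 and Nedd4l. Scnn1a measured 21.3 ± 4.14 CPM per kilobase in CePPy and 15.4 ± 1.57 in vehicle. Scnn1b measured 15.4 ± 1.36 in CePPy and 13.5 ± 0.667 in vehicle, and Scnn1g 13.7 ± 1.09 in CePPy and 11.0 ± 0.898 in vehicle. In vehicle the order alpha, beta, gamma held without overlap between the subunits' libraries. In CePPy beta and gamma overlapped, while alpha stayed above both.

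Sgk1 and Scnn1a changed places by library. Sgk1 measured 17.0, 20.7 and 26.3 CPM per kilobase in CePPy 1, 2 and 3 against 25.2, 25.0 and 26.5 in vehicle 1, 2 and 3, and it was above Scnn1a in all vehicle libraries and in CePPy 2 and 3, but below it in CePPy 1. Fxyd4, at 11.7 ± 2.54 CPM per kilobase in CePPy and 10.05 ± 2.36 in vehicle, could not be separated from Scnn1g in either group. Both this comparison and that of Sgk1 with Scnn1a depend on the summed exons, 1957 bases for Fxyd4 and 4903 for Sgk1. Nedd4l measured 4.78 ± 0.438 in CePPy and 5.35 ± 0.333 in vehicle, a value lowered by the 17659 bases of exon annotated over its many isoforms.

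**Figure D3:**
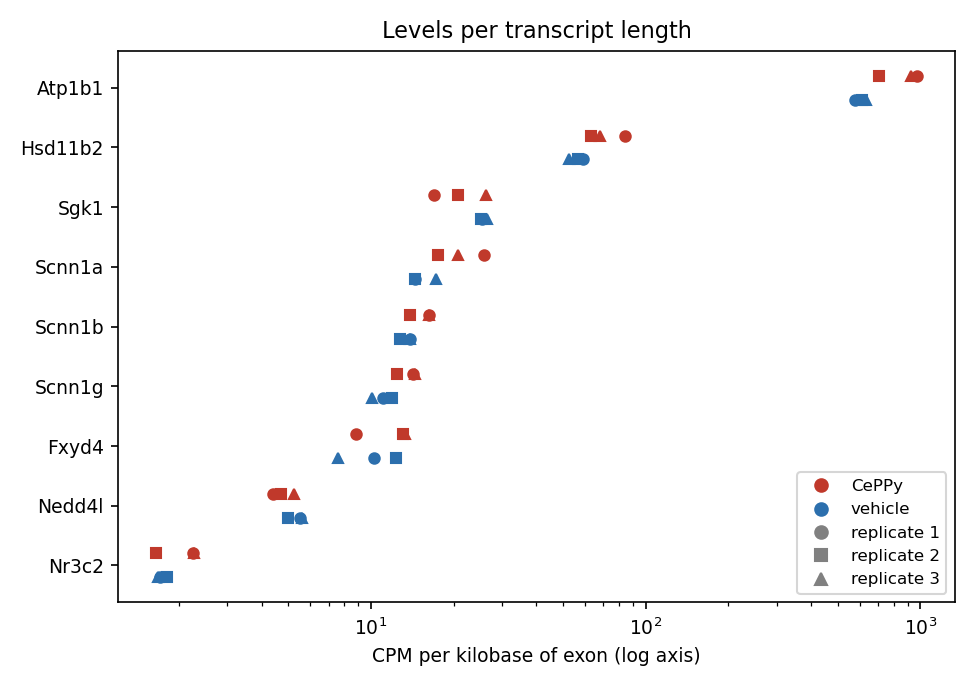
Level of each gene in CPM per kilobase of exon (x axis, logarithmic) in every library, with genes ordered by their vehicle mean, CePPy points above vehicle points and symbols for the replicate numbers. Atp1b1 lies between 578 and 969 and Nr3c2 between 1.66 and 2.27.

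Ratios between members within a library do not depend on how libraries are scaled. For the 7 ratios examined, the smallest two-sided p that an exact permutation test of 3 against 3 libraries can give is 0.1, so none could pass 0.05. The beta to alpha ratio (Scnn1b to Scnn1a) was -1.31, -0.98 and -1.0003 log2 units in CePPy 1, 2 and 3, against -0.71, -0.84 and -0.96 in vehicle 1, 2 and 3. It was lower in every CePPy library, by -0.26 on average (exact permutation p = 0.1, adjusted p = 0.35), although CePPy 2 and vehicle 3 lay next to each other, and the difference was -0.16 without CePPy 1. The gamma to alpha ratio overlapped between groups, with a difference of -0.14 (exact p = 0.5), and so did gamma to beta, with 0.12 (exact p = 0.4).

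The ratios of Hsd11b2 to Nr3c2 (difference 0.11, exact p = 0.4), of Nedd4l to Sgk1 (0.12, exact p = 0.4) and of Fxyd4 to Fxyd2 (0.19, exact p = 0.7) overlapped between groups. The Fxyd4 to Fxyd2 difference had no stable sign, at -0.047 without vehicle 3 and 0.61 without CePPy 1.

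**Figure D4:**
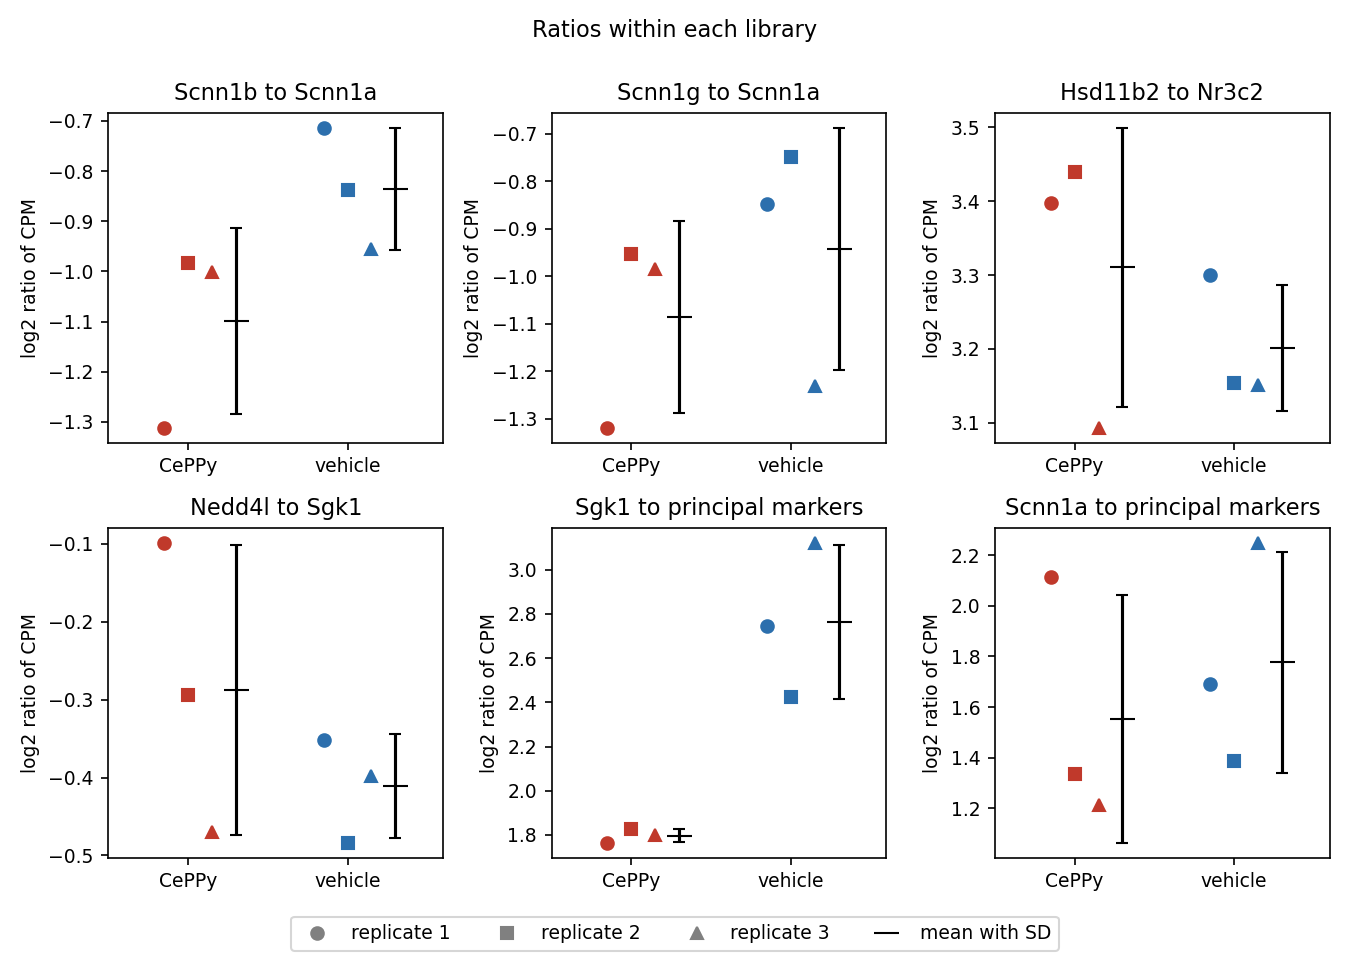
Log2 ratio of CPM values within each library for 6 gene pairs or marker comparisons, in CePPy (left) and vehicle (right), with symbols for the replicate numbers and bars for the mean and SD; y axes differ and do not start at 0. Scnn1b to Scnn1a lies between -1.31 and -0.98 in CePPy and between -0.96 and -0.71 in vehicle. Sgk1 to principal cell markers lies between 1.76 and 1.83 in CePPy and between 2.42 and 3.12 in vehicle.

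Principal cell markers outside the set had higher values too. The 7 genes (Aqp2, Aqp3, Aqp4, Avpr2, Gata3, Tfcp2l1 and Elf5) were all higher in fitted value, with a median log2 fold change of 0.69. EdgeR called 0 of them. An unadjusted p under 0.05 held for 4, all higher, against 9.65% of all genes tested in that direction. Of the 7, 3 lay above vehicle without overlap, against 12.3% of all genes tested. DESeq2 called 2 higher, against 3.4% of all genes it tested. Their mean level relative to the vehicle mean was 0.41, 0.63 and 0.999 log2 units in CePPy 1, 2 and 3, against 0.00, 0.31 and -0.31 in vehicle 1, 2 and 3. Aqp2, the vasopressin-regulated water channel, measured 190.3, 181 and 265 CPM in CePPy 1, 2 and 3, against 127, 145 and 93.3 CPM in vehicle 1, 2 and 3, without overlap (edgeR adjusted p = 0.118). Avpr2, the vasopressin receptor, measured 5.94, 4.57 and 7.80 CPM in CePPy 1, 2 and 3, against 2.14, 3.47 and 2.53 CPM in vehicle 1, 2 and 3 (edgeR adjusted p = 0.116).

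Set against the mean of these 7 markers in the same library, all 9 members had negative differences, as did 93.3% of all genes tested, since the marker mean itself was 0.68 log2 units higher in CePPy. The median difference was -0.44 over the 9 members and -0.68 over all genes tested. For 3 of the 9 every CePPy library lay below every vehicle library, against 51.7% of all genes tested, and for the other 6 the groups overlapped. Sgk1 lay 1.76, 1.83 and 1.80 log2 units above the markers in CePPy 1, 2 and 3, against 2.74, 2.42 and 3.12 in vehicle 1, 2 and 3. This was the largest difference among the 9, -0.97 (exact permutation p = 0.1, adjusted p = 0.3). The SD was 0.03 over the 3 CePPy libraries and 0.35 over the 3 vehicle libraries. Whether Sgk1 follows these markers was not tested. Nedd4l, with a difference of -0.84, and Fxyd4, with -0.45, were also lower in every CePPy library (exact permutation p = 0.1 each, adjusted p = 0.3). Scnn1a (-0.22) and Atp1b1 (-0.18) overlapped between groups (exact p = 0.5 each), and their signs depended on vehicle 3, without which they were 0.015 and 0.0063. Sgk1, Nedd4l and Atp1b1 are expressed in many kidney cells beside principal cells.

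Markers of the other tubule segments and of injury varied between the CePPy libraries. Relative to vehicle, 12 proximal tubule markers had a mean level of 1.29, 0.15 and 0.77 log2 units in CePPy 1, 2 and 3. The corresponding level of 8 thick ascending limb markers was 1.59, 0.45 and 0.99, that of 9 distal convoluted and connecting tubule markers 1.29, 0.23 and 0.79, and that of 11 intercalated cell markers 0.72, 0.23 and 0.41. In all 4 lists CePPy 1 was highest and CePPy 2 lowest, as for Scnn1a, Hsd11b2 and Atp1b1. Of 12 tubular injury markers, 11 had lower values and 9 of these lay below without overlap (14% of all genes tested did), with a median log2 fold change of -0.65. EdgeR called 0 of them, and 5 had lower values at an unadjusted p under 0.05 (9.37% of all genes tested did). DESeq2 called 5 lower (3.2% of all genes it tested). On average over the list, levels differed from the vehicle mean by -1.29, -0.21 and -0.42 log2 units in CePPy 1, 2 and 3, against -0.02, 0.02 and -0.01 in vehicle 1, 2 and 3, so every CePPy library was lower. Their summed level overlapped between groups at 17819, 34316 and 26551 CPM in CePPy 1, 2 and 3, against 32644, 31809 and 32642 CPM in vehicle 1, 2 and 3. CePPy 1, the lowest on both scales, was also lowest for Sgk1 and Nedd4l. Neutrophil markers were lower too, at 11.9, 25.6 and 19.4 CPM summed over 6 genes in CePPy 1, 2 and 3, against 39.8, 56.1 and 56.8 CPM in vehicle 1, 2 and 3. All 6 had lower values at an unadjusted p under 0.05 (9.37% of all genes tested did), with a median log2 fold change of -1.25. EdgeR called 0 of them and DESeq2 called 4 lower (3.2% of all genes it tested). The part of these markers in the members' values was not tested. Endothelial markers, from 375 to 387 CPM in CePPy and from 372 to 407 CPM in vehicle, and podocyte markers, from 375 to 403 CPM in CePPy and from 375 to 438 CPM in vehicle, overlapped between groups, as did macrophage markers, from 190.2 to 239 CPM in CePPy and from 213 to 256 CPM in vehicle.

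Markers of adrenal cortex, the tissue that makes aldosterone and lies on the kidney, were low, at 6.44, 8.38 and 6.53 CPM summed over 9 genes in CePPy 1, 2 and 3, against 9.13, 8.80 and 8.65 CPM in vehicle 1, 2 and 3. Every CePPy sum lay below every vehicle sum, but Star and Akr1b7 each overlapped between groups. Of the 3 genes tested, 0 lay below without overlap, against 14% of all genes tested. The gene Hsd3b1 lay above without overlap, against 12.3% of all genes tested. Of the list, Cyp11b2 (aldosterone synthase), Cyp21a1 and Nr5a1 had 0 counts in all 6 libraries. A level of up to 0.0798 to 0.1 CPM is allowed by 0 counts, taken as 3 counts in a library and covering counting error only. Cyp11b1, Cyp11a1 and Mc2r had 4, 2 and 26 counts over the 6 libraries together, and Star measured 3.21 to 5.82 CPM.

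Other genes of the pump were split between higher and lower values. Of 12 pump subunit and FXYD family genes besides Atp1b1 and Fxyd4, 10 were tested, with 6 higher and 4 lower values, a median log2 fold change of 0.04 and 0 called by edgeR or DESeq2. Of the 10, 3 lay below vehicle without overlap and 0 above, against 14% and 12.3% of all genes tested. An unadjusted p under 0.05 held for 1 gene, Fxyd5, which was lower, against 9.37% of all genes tested in that direction. Fxyd5, the regulator known as dysadherin, measured 31.1, 29.2 and 24.5 CPM in CePPy 1, 2 and 3, against 37.7, 39.0 and 34.6 CPM in vehicle 1, 2 and 3. All CePPy values were lower (log2 fold change -0.39, SE 0.11, edgeR adjusted p = 0.139). The pump's other beta subunits were much lower per length: Atp1b3 averaged 56.4 CPM per kilobase in CePPy and 61.3 in vehicle, and Atp1b2 3.82 in CePPy and 3.47 in vehicle.

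Proteases that cut and activate the channel, with their inhibitors, had mostly lower values. Of 14 genes, 13 were tested, 3 with higher and 10 with lower values and a median log2 fold change of -0.11, and edgeR and DESeq2 called 0 of them. An unadjusted p under 0.05 held for 2 genes with lower values, against 9.37% of all genes tested in that direction. Without overlap, 3 genes lay below vehicle and 0 above, against 14% and 12.3% of all genes tested. Furin, a proprotein convertase that cuts the alpha and gamma subunits, measured 206, 210.1 and 223 CPM in CePPy 1, 2 and 3, against 253, 235 and 249 CPM in vehicle 1, 2 and 3, with no overlap (log2 fold change -0.20, SE 0.08, edgeR adjusted p = 0.221). Spint1, an inhibitor of membrane serine proteases, was lower in all CePPy libraries, at 117 ± 7.93 CPM in CePPy and 132 ± 4.19 CPM in vehicle (SD, n = 3 each; edgeR adjusted p = 0.314).

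Among 22 genes around SGK1 and NEDD4L, besides Sgk1 and Nedd4l themselves, 12 had higher and 10 lower values, with a median log2 fold change of 0.06, and edgeR called 0 of them. An unadjusted p under 0.05 held for 4 higher genes and 1 lower gene, against 9.65% and 9.37% of all genes tested. DESeq2 called 2 higher and 0 lower, against 3.4% and 3.2% of all genes it tested. Without overlap, 3 genes lay above vehicle and 5 below, against 12.3% and 14% of all genes tested. Wnk1, a kinase that acts on salt transport and on SGK1, measured 272, 222 and 239 CPM in CePPy 1, 2 and 3, against 177, 184 and 199 CPM in vehicle 1, 2 and 3. No CePPy value reached down to vehicle (log2 fold change 0.39, SE 0.10, edgeR adjusted p = 0.128). Usp2, an aldosterone-induced ubiquitin protease that counters NEDD4L on the channel, measured 80.3, 55.8 and 60.0 CPM in CePPy 1, 2 and 3, against 35.4, 44.3 and 52.3 CPM in vehicle 1, 2 and 3 (log2 fold change 0.57, SE 0.18, edgeR adjusted p = 0.161). Usp10, another ubiquitin protease, was lower in all CePPy libraries, at 87.7 ± 3.67 CPM in CePPy and 103 ± 4.25 CPM in vehicle (SD, n = 3 each; edgeR adjusted p = 0.172).

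Genes induced by corticosteroids split in direction. The list with their receptors and enzymes had 13 genes besides Nr3c2, Hsd11b2 and Sgk1. Of these, 8 had higher and 5 lower values (median log2 fold change 0.13), and edgeR called 0. An unadjusted p under 0.05 was reached by 2 higher and 3 lower genes, against 9.65% and 9.37% of all genes tested. DESeq2 called 1 higher and 2 lower, against 3.4% and 3.2% of all genes it tested. Without overlap, 2 genes lay above vehicle and 3 below, against 12.3% and 14% of all genes tested. Dusp1, a phosphatase of stress-activated kinases, measured 26.4, 53.0 and 65.3 CPM in CePPy 1, 2 and 3, against 89.5, 77.4 and 104 CPM in vehicle 1, 2 and 3 (log2 fold change -0.91, SE 0.29, edgeR adjusted p = 0.168). Like Sgk1 it was lowest in CePPy 1, although its groups did not overlap. Cebpd, a transcription factor of the acute phase, was lower in all CePPy libraries (log2 fold change -0.59, SE 0.19, edgeR adjusted p = 0.164). Cited2, a coactivator of transcription, was higher in all of them, at 59.8 ± 4.97 CPM in CePPy and 45.0 ± 2.77 CPM in vehicle (SD, n = 3 each; log2 fold change 0.41, edgeR adjusted p = 0.109). Tsc22d3, which encodes the aldosterone and glucocorticoid-induced protein GILZ, measured 56.6, 37.0 and 42.9 CPM in CePPy 1, 2 and 3, against 31.4, 33.9 and 38.0 CPM in vehicle 1, 2 and 3, with overlap (log2 fold change 0.40, SE 0.16, edgeR adjusted p = 0.227).

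Of 7 genes of potassium channels that work beside sodium transport in the distal nephron, 5 were tested and all 5 had higher values. Their median log2 fold change was 0.31 and edgeR called 0. An unadjusted p under 0.05 held for 2 of them, against 9.65% of all genes tested in that direction. DESeq2 called 1 higher, against 3.4% of all genes it tested. Kcnj1, the channel ROMK, measured 188, 87.5 and 119.8 CPM in CePPy 1, 2 and 3, against 68.6, 69.2 and 71.9 CPM in vehicle 1, 2 and 3 (log2 fold change 0.92, SE 0.24, edgeR adjusted p = 0.13). The CePPy libraries varied more among themselves than the vehicle libraries, with CePPy 1 highest and CePPy 2 lowest. Kcnj1 is also expressed in the thick ascending limb.

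The genes nearest in pattern were those with the smallest root mean square difference from a member in log2 CPM centred over the 6 libraries, among 12164 genes that averaged 2 CPM or more. Nearest to Scnn1a were Aoah, Mut and Shpk, at 0.03, 0.03 and 0.04 log2 units. Nearest to Hsd11b2 were Fabp4, Plekhd1 and BC025446, at 0.03, 0.03 and 0.04. Nearest to Sgk1 were Haus3, Cep57 and Atm, at 0.05, 0.06 and 0.06. Over 6 libraries many genes can come this close.

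Total counts per library ranged from 29762157 to 37415213 in CePPy and from 33039101 to 35114355 in vehicle, 17413 to 17738 genes were detected per library, and each member had at least 365 counts in every library. Mitochondrial transcripts took 14.3% to 15.0% of counts in CePPy and 11.8% to 14.8% in vehicle.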

How the data were processed

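The authors deposited raw, whole-number read counts per gene for the 6 libraries in a single table. Per the submitters' processing notes, TopHat2, Cufflinks and DESeq were used with GRCm38; the sources used here name neither the counting program nor its use of strand nor the annotation release. Groups, replicate numbers and column names came from the labels. The members and lists were chosen with earlier results of these data known. Of 22036 rows with Ensembl identifiers, 22022 were found in GENCODE M21. Low counts were removed with filterByExpr of edgeR 4.0.16 (R 4.3.3), libraries were scaled by TMM, and treatment was tested with the quasi-likelihood test (4 residual degrees of freedom, Benjamini-Hochberg over 15416 genes, threshold 0.05). The SE of a fold change is its absolute value divided by the square root of the F statistic. Log2 CPM used a prior count of 0.5. Alternatives used DESeq2 1.42.0 and limma 3.58.1, other scalings and filters, a replicate block and each library left out. The edgeR steps were tested on simulated counts. Libraries of a group differed by more than sampling noise (chi-square per degree of freedom 19.7 to 106), so none was counted as a copy. Replicate numbers were not treated as pairs. All 9 members were named whatever their result, with up to 4 genes of each other list by lowest p, 3 nearest genes for each of 3 members, and, after their values were seen, Atp1b2, Atp1b3 and Nme7. Of the 7 ratios, 1 is not reported here, nor are some genes of the other lists.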

Additional observations from a re-analysis of the deposited data

How the results depend on the processing

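The sign of the log2 fold change of each of the 9 genes was kept under all 16 alternatives (144 of 144 values). The scalings moved the median of all genes by less than 0.03. EdgeR called 1 gene in the whole table; the count was 63 without the filter on low counts, 993 with DESeq2, 352 with limma-voom and sample weights, 0 with mitochondrial genes and NewGene loci left out (the 1 gene called is such a locus) and between 0 and 811 with a library left out (0 without CePPy 3, vehicle 1 or vehicle 3, 2 without CePPy 1, 6 without vehicle 2, 811 without CePPy 2). With the replicate number as a block, 0 genes and 0 members were called; deviations of same-numbered libraries from their group means correlated at -0.15, 0.08 and -0.03 across genes, and not every library correlated best with its own number. The count of members called, 0, became 2 with DESeq2 and lay between 0 and 2 with a library left out, 2 being reached without CePPy 2. The median log2 fold change of the members lay between 0.18 and 0.38 with a library left out. Of 112 values of ratios and marker-relative levels, 108 kept their sign; with a library left out, Scnn1b to Scnn1a lay between -0.32 and -0.16, Scnn1g to Scnn1a between -0.29 and -0.03, Scnn1g to Scnn1b between 0.04 and 0.22, Hsd11b2 to Nr3c2 between 0.04 and 0.22, Nedd4l to Sgk1 between 0.03 and 0.21, Fxyd4 to Fxyd2 between -0.047 and 0.61, Scnn1a relative to principal cell markers between -0.50 and 0.015, and Atp1b1 relative to them between -0.40 and 0.0063. Apart from the 1 gene called, the cause of these changes was not tested. EdgeR on all 6 libraries called none of the 9 differences (4 at an unadjusted p under 0.05), and the smallest difference that 3 libraries a group could have shown was not computed.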
